A study of Mus musculus with 19 samples.

Results

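The splicing machinery of spinal cord cholinergic neurons was followed through the day in 74 genes for spliceosome components and splicing factors, out of 50559 rows of the count table. The genes were chosen by symbol alone: SR proteins (Srsf, 11 genes), proteins of small nuclear ribonucleoproteins or snRNPs (Snrp and Snrnp, 20 genes), SF3a and SF3b subunits (9 genes), hnRNP proteins (18 genes), PRPF proteins (13 genes) and U2AF subunits (3 genes). Of 81 rows with such a symbol, 5 processed pseudogenes and Hnrnpa1 and Hnrnpa2b1 were set aside. Snrpert, which RefSeq lists as a pseudogene, stayed among the 74. All 74 genes passed the filter on low counts that left 15572 genes for testing.

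The mice were wild-type C57BL/6J males of 10 weeks that carried ChAT-Cre and 1 RiboTag allele (ChAT-Cre;RiboTag fx/+), so that cells with an active ChAT promoter carried an HA tag on their ribosomes. Every cholinergic cell type of the cord carries the tag, and motor neurons are not separated from other cholinergic cells. HA immunoprecipitates were made from 1 cord each every 4 h from ZT0 to ZT20 (Zeitgeber time, hours after lights on, 12 h of light), with 3 mice per time point and 18 libraries in all. The control was 1 library of pooled input, that is, whole spinal cord homogenate before precipitation, with no replicate. The libraries held between 6302140 and 22406850 expected counts, and the input held 15239783.

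Splicing removes introns from a pre-mRNA through snRNPs that assemble on it in turn. U1 snRNP meets the start of the intron, U2AF and U2 snRNP (with SF3a and SF3b) the branch point and the end of the intron, and the tri-snRNP with U5 at its centre carries the catalysis after a helicase has unwound U4 from U6. Sm proteins form the ring shared by most snRNPs, SR proteins favour and hnRNP proteins often oppose the use of an exon, and neurons use an especially broad set of alternative exons.

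The purification was checked in marker lists summed as CPM (counts per 1000000 of the scaled library size, here scaled over all 19 libraries). The 7 cholinergic neuron genes summed to between 4258 and 5081 in the immunoprecipitates and to 449 in the input, whereas the 7 oligodendrocyte genes summed to between 1538 and 2919 and to 21254. Genes of other cell types were thus present at lower levels than in the input. No marker gene of the 8 lists was at 0 in all immunoprecipitates. On the main axis of variation (52.8% of the variance over 9214 genes), replicates 2 and 3 of ZT8 stood apart with scores of 42.6 and 29.7, the highest of the 18 libraries, and replicate 1 of ZT8 scored 5.03. Dbp, a clock output gene used to check the time axis, rose from 10.3 ± 1.39 CPM at ZT0 to 22.4 ± 0.88 at ZT12 (SD, n = 3 each).

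Promoter sequences are shown for 3 genes that carry the time pattern described next: Snrpf and Snrpe, Sm proteins that rose to ZT8, and Prpf8, the scaffold of U5, which fell. The lines give the 250 bases before the transcription start (RefSeq, GRCm38.p6), 5′ to 3′ on the strand of the gene, at chr10:93589659-93589908 (minus strand), chr1:133610281-133610530 (minus strand) and chr11:75486527-75486776 (plus strand). Capitals mark the only match among them to AGGTCA, the core of the element bound by REV-ERB and ROR.
Snrpf: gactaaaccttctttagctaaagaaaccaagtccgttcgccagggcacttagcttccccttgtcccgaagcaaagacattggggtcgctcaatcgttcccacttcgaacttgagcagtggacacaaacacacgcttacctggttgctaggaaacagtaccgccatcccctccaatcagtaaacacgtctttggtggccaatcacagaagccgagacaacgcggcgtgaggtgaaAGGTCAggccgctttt
Snrpe: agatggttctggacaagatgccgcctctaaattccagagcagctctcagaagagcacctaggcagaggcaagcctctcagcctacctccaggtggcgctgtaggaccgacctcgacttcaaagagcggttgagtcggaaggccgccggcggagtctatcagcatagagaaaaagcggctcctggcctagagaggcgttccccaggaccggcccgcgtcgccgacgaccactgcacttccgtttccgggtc
Prpf8: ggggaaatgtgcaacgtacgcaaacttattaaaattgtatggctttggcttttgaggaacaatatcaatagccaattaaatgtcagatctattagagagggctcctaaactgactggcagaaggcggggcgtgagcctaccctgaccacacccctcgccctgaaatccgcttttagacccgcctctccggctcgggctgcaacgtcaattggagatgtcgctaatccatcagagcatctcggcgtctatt

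In the 300-base windows of the reference table (250 before to 50 after the start), both strands were searched for 3 clock motifs, which do not overlap in their letters. RefSeq gave 83 windows for 63 of the 74 genes. The E-box CACGTG was in 11 of these windows (13.3%, against 7.15% of all 32851 windows), the D-box TTATGTAA in 0 (against 0.938%) and AGGTCA in 9 (10.8%, against 16.3%). Of the 10 genes with a 24-h cosine pattern, Hnrnpf held an E-box in 1 of its windows and Snrpf the AGGTCA match, which began 16 bases before its start. These matches describe letters in the window and no binding was measured.

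The mean summed level of the 74 genes was highest at ZT8. The 74 genes summed to 6247 ± 205 CPM at ZT0, then to 6925 ± 222 at ZT4 and 7065 ± 409 at ZT8, and stood at 6644 ± 274 at ZT12, 6350 ± 312 at ZT16 and 6542 ± 333 at ZT20 (SD, n = 3 each, not tested). The ZT8 libraries ranged from 6655 to 7472 and did not overlap those of ZT0, from 6088 to 6478, or those of ZT16, from 6010 to 6624, but overlapped those of ZT4 (6687 to 7127), ZT12 (6332 to 6845) and ZT20 (6350 to 6927). In bulk material, fewer tagged cells and less RNA per cell cannot be told apart.

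**Figure D1:**
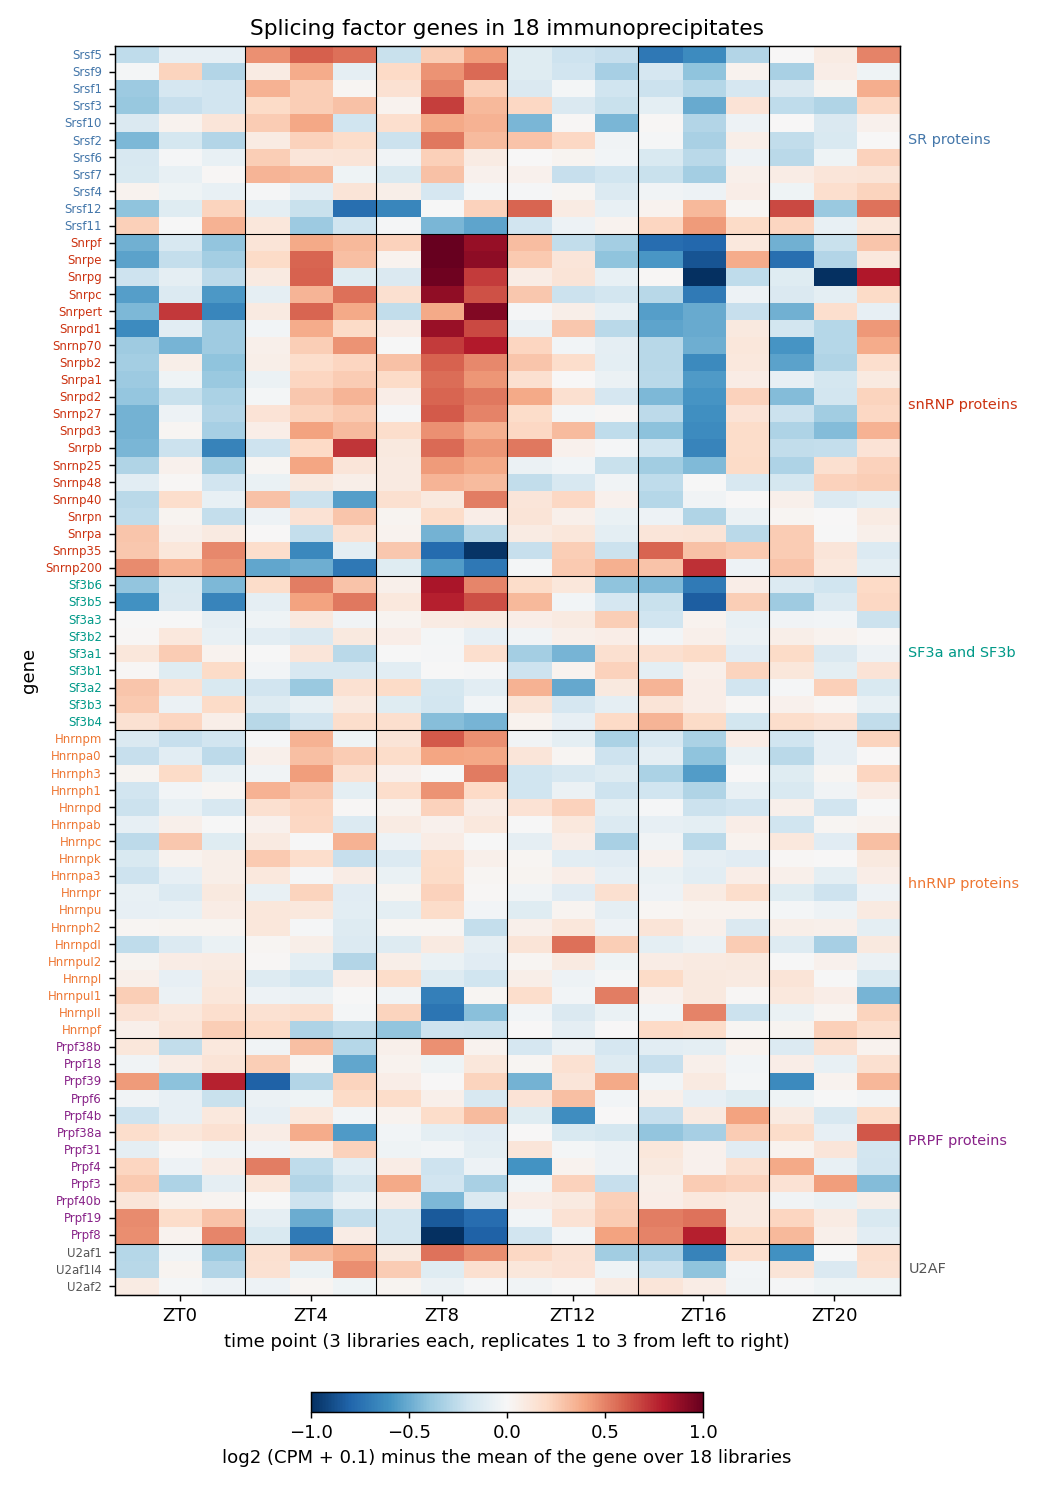
The heat map shows the 74 genes but 1 (rows, by group) in the 18 immunoprecipitates (columns, 3 per time point, replicates 1 to 3 from left to right) as log2(CPM + 0.1) minus the mean of the gene. Most snRNP rows are red in replicates 2 and 3 of ZT8 and blue at ZT0 and in replicates 1 and 2 of ZT16, and Snrnp200, Prpf19 and Prpf8 show the opposite colours.

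The change across the light phase, from ZT0 to ZT8, was tested with the quasi-likelihood test of edgeR on all 18 immunoprecipitates, with adjustment over all genes tested. By that test 20 of the 74 genes (27%) were higher at ZT8 and 5 (6.76%) lower, against 8.95% and 9.02% of all genes tested. The median log2 change was 0.13 over the 74 genes and -0.003 over all genes. The snRNP proteins held the largest share: 11 of 20 rose and 1 fell, with a median of 0.66 on the log2 scale. Among SR proteins 3 of 11 rose and 1 fell (median 0.29), among hnRNP proteins 3 of 18 rose and 1 fell (0.07), in SF3a and SF3b 2 of 9 rose (-0.08), in U2AF 1 of 3 rose (0.29), and among PRPF proteins 2 of 13 fell and 0 rose (-0.03).

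From ZT8 to ZT16, in the first part of the night, 20 of the 74 genes were lower at ZT16 (27%, against 7.8% of all genes tested) and 6 higher (8.11%, against 9.11%). The median log2 change was -0.13 over the 74 genes and 0.005 over all genes. Among snRNP proteins 9 of 20 fell and 2 rose, among SR proteins 4 of 11 fell and 1 rose, among hnRNP proteins 4 of 18 fell and 1 rose, in SF3a and SF3b 2 of 9 fell, in U2AF 1 of 3 fell, and among PRPF proteins 2 of 13 rose. Both comparisons share the 3 ZT8 libraries, so the reversal of sign between them is not independent evidence.

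Both counts changed with single libraries. For ZT8 against ZT0 the 25 genes called fell to 2 (Prpf19 and Snrnp200) without replicate 2 of ZT8, 8 without replicate 1 of ZT0, 13 without replicate 3 of ZT0 and 14 without replicate 3 of ZT8. Among all genes the 2798 calls fell to 274, 639, 1128 and 1114 in the same order. For ZT16 against ZT8 the 26 genes called fell to 1 (Prpf19) without replicate 2 of ZT8, 1 (Prpf19) without replicate 2 of ZT16, 10 without replicate 1 of ZT16 and 11 without replicate 3 of ZT8. Among all genes the 2633 calls fell to 87, 72, 892 and 931 in the same order.

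**Figure D2:**
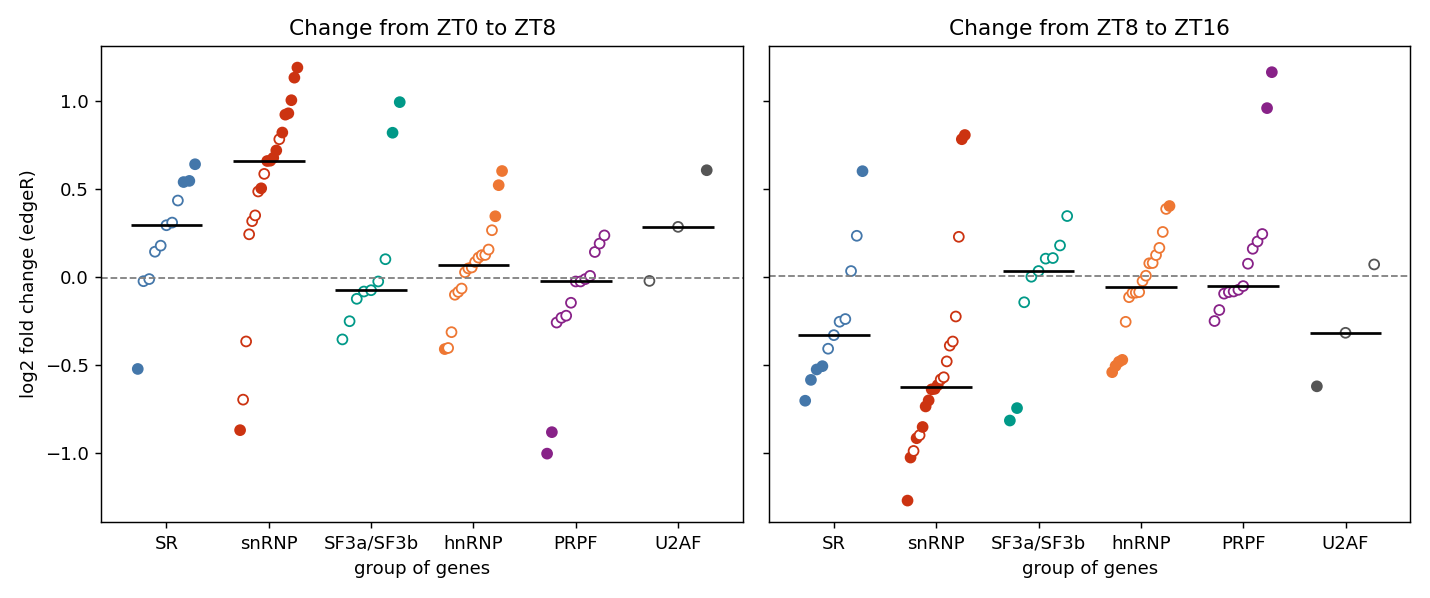
The plot of changes by group shows the log2 fold change of each of the 74 genes from ZT0 to ZT8 (left) and from ZT8 to ZT16 (right), with filled points for an edgeR adjusted p under 0.05, black bars for group medians and a dashed line for the median of all genes tested. The snRNP median lies at 0.66 on the left and at -0.63 on the right. The PRPF genes Prpf8 and Prpf19 and the snRNP genes Snrnp200 and Snrnp35 lie towards the opposite end.

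Among the 74 genes, the largest rise from ZT0 to ZT8 was that of Snrpf, the F subunit of the Sm ring. It was at 21.0, 26.3 and 22.3 CPM at ZT0, at 34.4, 70.2 and 53.8 at ZT8 and at 17.3, 17.0 and 31.6 at ZT16. All ZT8 libraries lay above all ZT0 and ZT16 libraries, and replicate 2 of ZT8 was the highest of the day. Its mean rose 2.27-fold from ZT0 to ZT8 (log2 change 1.19 ± 0.26 SE, edgeR adjusted p = 0.00724) and its log2 change from ZT8 to ZT16 was -1.27 ± 0.26 (edgeR adjusted p = 0.00699).

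Snrpe, the E subunit, was at 28, 34.4 and 32.1 CPM at ZT0, at 41.7, 89.7 and 75.5 at ZT8 and at 27.1, 22.3 and 52.6 at ZT16. Its ZT8 libraries lay above those of ZT0, but replicate 3 of ZT16 lay above replicate 1 of ZT8. The log2 change was 1.13 ± 0.29 from ZT0 to ZT8 (edgeR adjusted p = 0.012) and -1.03 ± 0.29 from ZT8 to ZT16 (edgeR adjusted p = 0.0199).

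Of the 8 Sm ring genes (Snrpb, its paralog Snrpn, Snrpd1 to Snrpd3, Snrpe, Snrpf and Snrpg), all 8 had a positive log2 change to ZT8, with a median of 0.80, and 5 passed the test. Snrpd1 rose by 0.92 ± 0.22 on the log2 scale (edgeR adjusted p = 0.00982), Snrpd2 by 0.72 ± 0.20 (edgeR adjusted p = 0.0182) and Snrpb by 0.82 ± 0.22 (edgeR adjusted p = 0.0157). Snrpd3 and Snrpg did not pass, with log2 changes of 0.59 and 0.78. Snrpn, the neuronal counterpart of Snrpb, had a log2 change of only 0.24 (edgeR adjusted p = 0.101) and stood at 777, 943 and 786 CPM at ZT0 and 944, 1051 and 971 at ZT8, where the lowest ZT8 library lay just above the highest ZT0 library. Snrpn shares a transcript with Snurf, and reads of that transcript cannot be assigned to one of them alone.

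The particle-specific proteins of U1 and U2 moved the same way. Snrpc, the U1 protein that contacts the start of the intron, was at 57.3, 76.5 and 56.4 CPM at ZT0 and at 94.0, 156 and 131 at ZT8, without overlap, and rose 2.00-fold (log2 change 1.01 ± 0.20, edgeR adjusted p = 0.00593). Snrnp70, the U1 70K protein, rose from 129 ± 5.34 to 245 ± 67.2 CPM (SD, n = 3 each, log2 change 0.93 ± 0.21, edgeR adjusted p = 0.0086). Snrpa, the third U1 protein, did not share this, at 96.2, 82.3 and 84.7 CPM at ZT0 and 81.6, 57.2 and 65.7 at ZT8 (log2 change -0.37, edgeR adjusted p = 0.074).

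In U2, Snrpa1 (the A′ protein) rose by 0.66 ± 0.15 on the log2 scale to ZT8 (edgeR adjusted p = 0.0086), and its partner Snrpb2 (the B″ protein) went from 30.7, 40.5 and 29.5 CPM at ZT0 to 47.6, 58.6 and 54.2 at ZT8, without overlap. In SF3b the 2 small subunits rose: Sf3b6, which lies at the branch point, by 0.82 ± 0.20 and Sf3b5 by 0.99 ± 0.24 on the log2 scale (edgeR adjusted p = 0.011 and 0.00959). The large subunits did not pass. Sf3b2, the highest of the group per kilobase of transcript, stayed within 282 to 335 CPM in all 18 libraries, and Sf3b1 had a log2 change of -0.08.

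The subunits of U2AF were measured side by side, and the difference between them was not tested. U2af1, which reads the AG at the end of the intron, rose by 0.61 ± 0.20 on the log2 scale to ZT8 (edgeR adjusted p = 0.0421) and had a log2 change of -0.62 ± 0.20 to ZT16 (edgeR adjusted p = 0.0397). The first call was lost without any 1 of 9 of the 18 libraries and with library totals, and the second without any 1 of 6. U2af2, which binds the pyrimidine tract, ranged from 135 to 153 CPM over all 18 libraries and had log2 changes of -0.02 and 0.07.

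Prpf8 and Snrnp200, which are bound to each other in U5, went the other way, as did Prpf19. Prpf8, the scaffold that holds the catalytic RNA, was at 93.9, 69.6 and 95.4 CPM at ZT0, at 59.8, 31.1 and 38.7 at ZT8 and at 95.8, 116 and 77.6 at ZT16. Every ZT8 library lay below every ZT0 and ZT16 library. The log2 change was -1.004 ± 0.23 to ZT8 and 1.16 ± 0.23 to ZT16 (edgeR adjusted p = 0.00851 and 0.00699).

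Snrnp200, the helicase that unwinds U4 from U6, was at 49.7, 45.7 and 48.8 CPM at ZT0, at 25.0, 25.4 and 21.8 at ZT4, at 33.0, 24.3 and 21.7 at ZT8 and at 43.6, 59.6 and 34.5 at ZT16. It was already low at ZT4, and its ZT4 and ZT8 libraries lay below those of ZT0 and ZT16. The log2 change from ZT0 to ZT8 was -0.87 ± 0.18 (edgeR adjusted p = 0.0061). Other proteins of U5 and the tri-snRNP did not share this: Eftud2, the large GTPase of U5 and not among the 74, had a log2 change of -0.18 ± 0.12 (edgeR adjusted p = 0.317), Ddx23, a helicase of U5 outside the 74, of 0.45 ± 0.23 (edgeR adjusted p = 0.19), and Snrnp40 of 0.32 (edgeR adjusted p = 0.239), none of which passed. Eftud2 and Ddx23 were chosen after their values were seen.

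Prpf19, the ubiquitin ligase of the complex named after it, had the highest level of the PRPF genes per kilobase of transcript, with 503, 411 and 441 CPM at ZT0, 320, 202 and 214 at ZT8 and 517, 529 and 386 at ZT16. The ZT8 libraries lay below all others of ZT0 and ZT16, and the log2 change was -0.88 ± 0.16 to ZT8 and 0.96 ± 0.16 to ZT16 (edgeR adjusted p = 0.00519 and 0.00476). Its changes were the only ones among the named genes called in both comparisons that kept their call whichever of the 18 libraries was left out. The other PRPF genes stayed between -0.26 and 0.24 on the log2 scale from ZT0 to ZT8 and none passed, the tri-snRNP proteins Prpf31 (-0.01) and Prpf6 (0.14) among them.

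**Figure D3:**
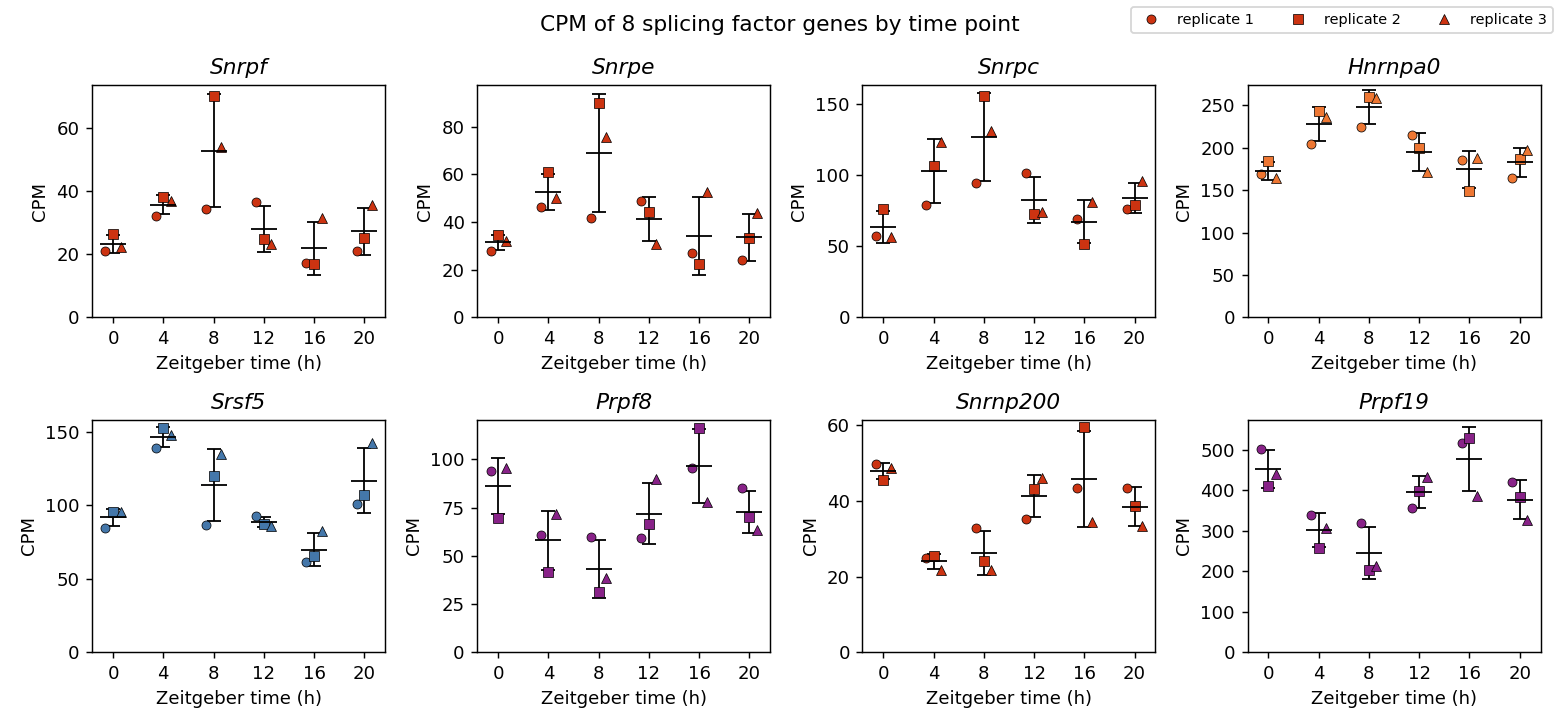
The time-course plots show CPM against Zeitgeber time for 8 genes, with circles, squares and triangles for replicates 1, 2 and 3 and black bars for the mean ± SD (n = 3). Snrpf, Snrpe, Snrpc and Hnrnpa0 peak at ZT8, Srsf5 at ZT4, and Prpf8, Snrnp200 and Prpf19 are lowest at ZT4 or ZT8.

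SR proteins differed in timing. Srsf5, an SR protein that binds exonic enhancers and the highest of its group per kilobase of transcript, was at 84.6, 95.1 and 95.1 CPM at ZT0, at 139, 153 and 148 at ZT4, at 86.4, 120 and 135 at ZT8 and at 61.4, 65.3 and 82.4 at ZT16. It was highest at ZT4, and its ZT16 libraries lay below those of the 3 earlier times listed. Srsf5 was the only one of the 74 genes called in any pair of time points beyond ZT8 against ZT0 and ZT16 against ZT8: it was lower at ZT16 than at ZT4 (log2 change -1.07 ± 0.15, edgeR adjusted p = 0.011). Of all genes tested, 0.0963% were called in any of these other pairs. Without replicate 1 of ZT8 21 of the 74 genes were called in such pairs (28.4%, against 14.3% of all genes in that fit), and without replicate 3 of ZT16 22 (29.7%, against 9.98%).

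Srsf1, Srsf2 and Srsf3, general SR proteins needed for splicing of many exons, rose to ZT8 by 0.54 ± 0.13, 0.55 ± 0.15 and 0.64 ± 0.17 on the log2 scale (edgeR adjusted p = 0.00905, 0.0188 and 0.0164). Srsf11, an SR-related protein, was lower at ZT8, with 39.1, 33.1 and 42.4 CPM at ZT0 and 32.9, 24.2 and 23.0 at ZT8, without overlap (log2 change -0.52 ± 0.15, edgeR adjusted p = 0.023). Srsf4 and Srsf6, close paralogs, had log2 changes of -0.01 and 0.18 and did not pass.

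Among hnRNP proteins, Hnrnpa0 was at 169, 184 and 165 CPM at ZT0, at 224, 260 and 259 at ZT8 and at 186, 149 and 188 at ZT16, so that ZT8 lay above both without overlap. It rose 1.44-fold (log2 change 0.52 ± 0.11, edgeR adjusted p = 0.00762). Hnrnpm rose by 0.60 ± 0.14 and Hnrnph1, which binds runs of G, by 0.35 ± 0.12 on the log2 scale (edgeR adjusted p = 0.00982 and 0.0456). The Hnrnph1 call was lost without any 1 of 13 of the 18 libraries, with library totals as the scale and with either looser filter, while its call from ZT8 to ZT16 was lost without any 1 of 3 libraries.

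Hnrnpf, the close relative of Hnrnph1, went the opposite way, with 37.2, 39.0 and 42.4 CPM at ZT0, 27.3, 31.1 and 30.9 at ZT8 and 41.1, 40.8 and 36.4 at ZT16. The ZT8 libraries lay below those of both other times. The log2 change to ZT8 was -0.41 ± 0.13 (edgeR adjusted p = 0.0315). That call was lost without any 1 of 6 of the 18 libraries and under the correction for transcript length and GC described below. The call of Hnrnpf from ZT8 to ZT16 was lost without any 1 of 5 libraries and under the same correction. Hnrnph2 (-0.08) and Hnrnpa3 (0.12) did not pass. The remaining 12 hnRNP genes were not called in this comparison either, and of them only Hnrnph3 was called from ZT8 to ZT16, with a log2 change of -0.48 (edgeR adjusted p = 0.0457).

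A 24-h rhythm was tested with a cosinor in edgeR, which called 10 of the 74 genes (13.5%) against 6.24% of all genes tested. The fitted curve peaked in the light phase for 6 (8.11%, against 3.33% of all genes): Srsf5 (ZT3.48), Hnrnpa0 (ZT7.05), Snrpf (ZT7.06), Snrpe (ZT7.47), Snrpb2 (ZT7.85) and Srsf2 (ZT8.9). It peaked in the dark phase for 4 (5.41%, against 2.91%): Snrnp200 (ZT18.3), Prpf19 (ZT18.6), Prpf8 (ZT18.8) and Hnrnpf (ZT19.7). Amplitudes ran from 0.21 for Hnrnpf to 0.52 for Snrpe on the log2 scale, and the adjusted p-values lay close to the threshold, from 0.0373 for Hnrnpa0 to 0.0487 for Prpf8 and Srsf2. The count of 10 fell to 0 without any 1 of 9 libraries (replicate 1 of ZT12, ZT16 or ZT20, replicate 2 of ZT0, ZT4, ZT8 or ZT16, or replicate 3 of ZT4 or ZT8), to 1 without replicate 3 of ZT0 and to 6 without replicate 2 of ZT12. It rose to 22, 21 and 29 without replicate 3 of ZT12, ZT16 and ZT20. Among all genes the 972 calls became between 2 and 13 in the 9 fits with 0. They became 213 without replicate 3 of ZT0 and 704 without replicate 2 of ZT12. Without replicate 3 of ZT12, ZT16 and ZT20 they became 1610, 1546 and 2668. With the oligodendrocyte marker score as a covariate, 0 of the 74 genes were called, and 4 of all genes instead of 972.

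A test for any difference among the 6 time points called 13 genes (17.6%, against 6.74% of all genes). That count ranged from 1 without replicate 3 of ZT8 to 24 without replicate 1 of ZT8 or replicate 3 of ZT16, and moved by over 1.5 times for 12 of the 18 libraries. Among all genes the 1050 calls became 5, 2454 and 2058 in these fits, in the same order. JTK_Cycle, a rank test against cosine curves of 20, 24 and 28 h, called 0 of the 74 after adjustment over all genes (against 0.0385%), and 4 without replicate 3 of ZT16 (5.41%, against 4.67% of all genes in that fit). With Bonferroni adjustment within the gene alone, 21 passed (28.4%, against 15.8% of all genes), led by Snrpb2 (p = 0.000617, exact), Srsf5 (p = 0.00112, exact) and Prpf19 with Hnrnpa0 (p = 0.00192 each, exact). These 21 became 12, 11, 11, 9 and 13 without replicate 1 of ZT16, replicate 2 of ZT4, ZT8 or ZT16, or replicate 3 of ZT8. Among all genes the 2467 that passed became 1846, 1716, 1422, 1698 and 1463 in the same order. For ZT20 against ZT8 edgeR called 0 genes among the 74 and among all genes (0%), while 26 of the 74 and 3474 of all genes had an unadjusted p under 0.05, and DESeq2 called 11 and 1114. Without replicate 1 of ZT8 edgeR called 23 of the 74 (31.1%, against 14.4% of all genes in that fit), without replicate 3 of ZT16 5 (6.76%, against 3.59%) and without replicate 3 of ZT20 4 (5.41%, against 1.59%).

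The direction of change went with transcript length in these genes. Length was that of the longest coding transcript in GENCODE M21. Of the 17 genes under 1.5 kb, 11 rose from ZT0 to ZT8 and 0 fell, with a median log2 change of 0.66, while over all 2489 genes of that length 19.2% rose and the median was 0.27. Of the 16 genes of 4 kb and over, 1 rose and 3 fell, with a median of -0.08, against 6.86% and 9.03% of 4997 genes and a median of -0.03. Spearman's rho between length and log2 change across the 74 genes was -0.52 from ZT0 to ZT8 and 0.55 from ZT8 to ZT16, against -0.13 and 0.13 across 14729 genes, where genes share libraries and are not replicates. Under a correction of each library for length and GC, added after the data were seen, 26 genes were called from ZT0 to ZT8 and 27 from ZT8 to ZT16. Of the original calls, 23 of 25 and 24 of 26 remained, those lost being Hnrnpf and Snrnp25 in the first and Hnrnpf and Snrnp27 in the second. Snrnp35, Snrpa and Snrpd3 were gained in the first and Snrpb, Snrpd3 and Srsf10 in the second. Without the correction, the log2 changes to ZT8 were -0.70 for Snrnp35, -0.37 for Snrpa and 0.59 for Snrpd3. Snrnp35 and Snrpa, at 1181 and 1365 bases, are short genes with negative log2 changes. Neither passed without the correction (edgeR adjusted p = 0.073 and 0.074).

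**Figure D4:**
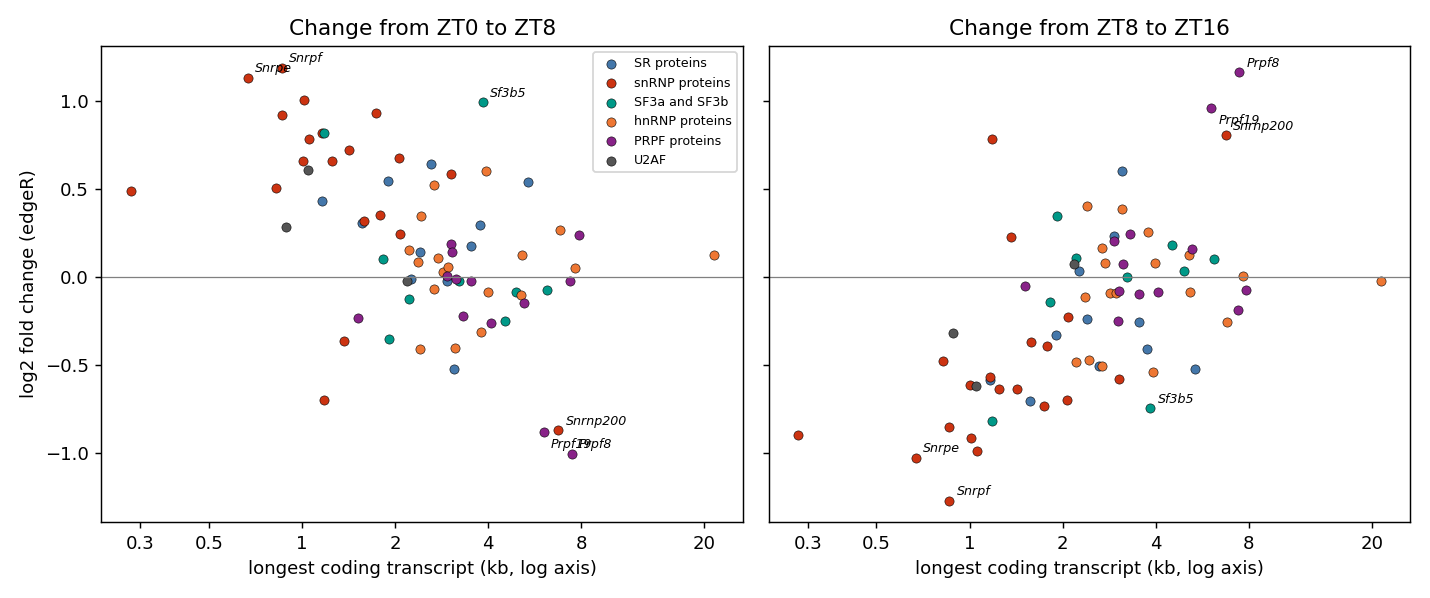
The plot against transcript length shows the log2 fold change of each of the 74 genes from ZT0 to ZT8 (left) and from ZT8 to ZT16 (right) against the length of its longest coding transcript in kb (log axis), coloured by group. Short snRNP genes such as Snrpf and Snrpe lie at one end and Prpf8, Prpf19 and Snrnp200 at the other. Sf3b5, drawn at 3841 bases, moved with the short genes. RefSeq places the whole of Sf3b5 at chr10:13008450-13009183, a shorter span, so its length here depends on the annotation.

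Marker lists moved as well. Of the 7 cholinergic neuron genes, 4 were lower at ZT8 than at ZT0 (median log2 change -0.64) and 5 were higher at ZT16 than at ZT8 (0.59), although their sum overlapped between ZT0 (4295 to 4768 CPM) and ZT8 (4230 to 4685). The 7 oligodendrocyte genes summed to between 1827 and 2207 CPM at ZT0, 1744 and 2002 at ZT8 and 1932 and 2887 at ZT16. Of those 7, 1 was lower at ZT8 than at ZT0 and 1 higher at ZT16 than at ZT8. The 6 astrocyte genes summed to between 799 and 864 CPM at ZT0, 553 and 700 at ZT8 and 801 and 851 at ZT16, and 1 was lower at ZT8 than at ZT0. The 4 inhibitory neuron genes summed to between 321 and 338 CPM at ZT0, 246 and 299 at ZT8 and 290 and 332 at ZT16, and 2 were lower at ZT8 than at ZT0. With the oligodendrocyte score as a covariate, 26 of the 74 genes were called from ZT0 to ZT8 and 28 from ZT8 to ZT16. Of all genes, 2967 and 2749 were called. The cosinor then called 0 of the 74 and 4 of all genes. The other lists were not used as covariates, and the part of their shifts in the splicing factor results was not tested.

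Levels were compared between genes per kilobase of transcript. Snrpn stood highest at 449 CPM per kb, followed by Snrpb (136), Snrnp70 (101), Sf3b2 (96.9) and Snrpc (86.6). The lowest were Hnrnpr (1.31), Prpf39 (1.51) and Srsf12 (1.53). The rank of Hnrnpr rests on the length used for it, 21452 bases. Before division by length it averaged 28.1 CPM, above Prpf39 (6.13) and Srsf12 (4.49). Snrpert, which RefSeq lists as a pseudogene and a copy of Snrpe, averaged 1.89 CPM, and its reads cannot be separated with certainty from those of Snrpe.

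Against the pooled input, the snRNP genes were the most enriched of the 6 groups. A gene was called where the mean CPM of the 18 immunoprecipitates and the CPM of the input differed at least 2-fold with all 18 on the same side, which is a description, since 1 input library allows no test. By this rule 20 of the 74 genes were enriched (27%, against 13.9% of 17901 genes) and 5 depleted (6.76%, against 23%). Of the 20 snRNP genes 13 were enriched and 0 depleted, with a median log2 ratio of 1.25. The 13 include the pseudogene Snrpert, with only 14 counts in the input. Of the 8 Sm ring genes 7 were enriched. Of 18 hnRNP genes 1 was enriched and 2 depleted (median 0.08), and of 11 SR genes 0 were enriched and 2 depleted (-0.01). Of 13 PRPF genes 4 were enriched and 1 depleted (-0.10). In SF3a and SF3b 1 of 9 was enriched (0.54) and in U2AF 1 of 3 (0.93), with 0 depleted in either.

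The highest ratios belonged to Snrpc and Snrpb. Snrpc was at 21.6 CPM in the input (95% exact Poisson interval 19.6 to 23.8, for counting error only) and at 52.6 to 157 in the immunoprecipitates, 4.1-fold higher on average. Snrpb was at 42.0 CPM in the input (39.2 to 45.1) and at 98.3 to 252 in the immunoprecipitates, 3.8-fold higher. Prpf31, of the tri-snRNP, was 3.61-fold higher with little spread, at 93.6 to 125 CPM against 29.6, and Snrpd2 and Snrpb2 followed at 3.5-fold and 3.27-fold.

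Snrpn was 2.47-fold higher than in the input, at 766 to 1136 CPM against 381, and U2af1l4, a paralog of U2af1, was 2.51-fold higher. Prpf40b, which bridges U1 to other factors, was 2.43-fold higher at 60.4 to 97.1 CPM against 34.2.

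The 5 depleted genes were Hnrnpul1, Hnrnpll, Prpf39, Srsf11 and Srsf12. Hnrnpul1 was at 69.8 CPM in the input (66.1 to 73.7) and at 15.0 to 34.4 in the immunoprecipitates, and Hnrnpll, a regulator known from lymphocytes, was at 28.1 and at 7.08 to 16.9. Hnrnpf (log2 ratio -0.96) and Hnrnpk (-0.45) were below the input in all 18 libraries without reaching 2-fold. With library totals as the scale, 12 of the 74 genes were enriched and 8 depleted, against 1525 and 5354 of 17901 genes. The median log2 ratio moved from 0.32 to -0.01 over the 74 genes and from -0.09 to -0.42 over all genes. On that scale the median was 0.92 for snRNP genes, -0.34 for SR genes and -0.25 for hnRNP genes, the last with its sign turned.

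**Figure D5:**
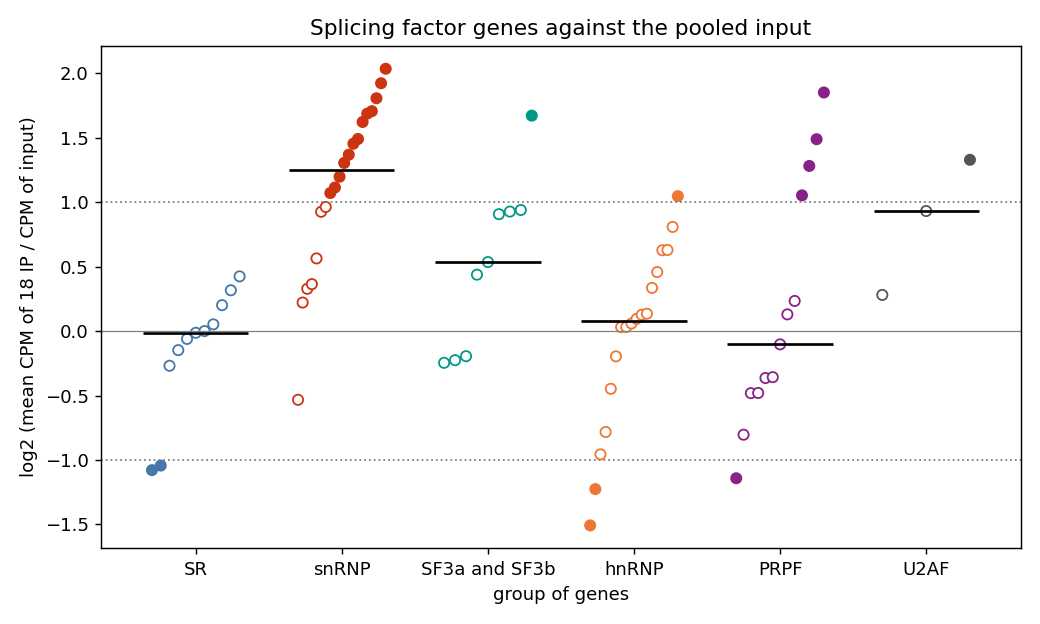
The plot of ratios to the input shows the log2 ratio of the mean CPM of 18 immunoprecipitates to the CPM of the 1 input library for each gene by group, with filled points for genes at least 2-fold apart with all 18 libraries on one side (dotted lines at 2-fold) and bars for medians. Most snRNP genes lie above the upper line, and the SR median lies at -0.01.

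A further 88 splicing genes outside the 74 (Sm-like proteins, Prp19 complex and step factors, helicases, SR-related proteins, exon junction proteins, kinases and regulators such as muscleblind) were followed in the same fit. Of these 88, 19 were higher and 15 lower at ZT8 than at ZT0 (against 8.95% and 9.02% of all genes tested), with a median log2 change of -0.0012. At ZT16, 15 of the 88 were higher and 19 lower than at ZT8 (against 9.11% and 7.8%). Both directions were thus called more often than among all genes. The 7 Sm-like genes, which form the ring on U6 or act in mRNA decay, moved with the Sm genes: 5 of 7 rose to ZT8 with a median of 0.80. The cosinor called 10 of the 88, against 6.24% of all genes tested. They peaked in the light phase for Lsm4, Lsm6, Lsm7, Rbm17, Rbm8a, Txnl4a and Bud31 and in the dark phase for Srrm4, Mbnl2 and Acin1.

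Among them, Txnl4a, a small protein bound to Prpf8 in U5, rose from 201 ± 31.1 CPM at ZT0 to 416 ± 134 at ZT8 (SD, n = 3 each, log2 change 1.06, edgeR adjusted p = 0.007), the opposite of Prpf8 itself. Srrm4, a neuron-specific activator of microexons, went from 25.1 ± 2.31 CPM at ZT0 to 18.1 ± 2.97 at ZT8 and 30.2 ± 3.00 at ZT16 (SD, n = 3 each, log2 change from ZT8 to ZT16 0.74, edgeR adjusted p = 0.007). Mbnl2, a muscleblind regulator of alternative exons, was at 78.9 ± 11.1 CPM at ZT0, 39.4 ± 13.8 at ZT8 and 78.5 ± 18.3 at ZT16 (log2 change from ZT0 to ZT8 -1.01, edgeR adjusted p = 0.007).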

How the data were processed

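RNA of 18 HA immunoprecipitates and 1 pooled input was sequenced from stranded mRNA libraries. The authors aligned reads with STAR 2.7.5 to mm10 and deposited RSEM expected counts per gene, without normalization (per the labels and published methods). All value columns were mapped by name. RSEM splits reads shared by several genes by a model, and between 1.9% and 3.68% of values per library were not whole. They were rounded here. The 74 genes and all lists were chosen with earlier results of these data known. Genes were filtered with filterByExpr and scaled by TMM in edgeR 4.0.16 (R 4.3.3). Quasi-likelihood tests used all 18 immunoprecipitates with Benjamini-Hochberg adjustment at 0.05 over 15572 genes, for a 24-h cosinor, the 6 time points and 15 pairs. Standard errors came from the F statistic. JTK_Cycle used periods of 20, 24 and 28 h (18 templates, exact null distribution). The biological coefficient of variation was 19.2%. Scripts were tested on simulated data. Totals of 6302140 to 22406850 counts set the precision, and intervals cover counting error only. Genes named were those called by the cosinor or the time-point test, the extremes of each group in level, change from ZT8 to ZT16 and ratio to the input, and 6 paralog pairs; others named (Sf3b5, Snrnp70, Snrpd1, Snrpd3, Snrpg, Snrpa, Srsf3, Prpf6, Hnrnpk, Hnrnpr, Hnrnph3, Sf3b1, Snrnp25, Snrnp27, Snrnp35, Snrnp40, Srsf10 and Snrpert) were chosen after their values were seen. Alternatives were other scalings, filters, DESeq2 1.42.0, a replicate block, an oligodendrocyte covariate, left-out libraries and a length and GC correction. The values of 1 of the 74 genes are not reported here singly, although it was counted in every total.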

Additional observations from a re-analysis of the deposited data

How the results depend on the processing

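For the 74 genes, 25 were called for ZT8 against ZT0 and 26 for ZT16 against ZT8, and under other scalings, both filters, DESeq2, the replicate block, the oligodendrocyte score and the length and GC correction these counts stayed between 23 and 28 and between 24 and 32. They ranged from 2 to 34 and from 1 to 35 with 1 library left out, and were 22, 0 and 0, and 25, 0 and 25, without replicates 1, 2 and 3. The 10 cosinor calls became 24 with at least 1 count in total, 24 by DESeq2, 17 with the length and GC correction and 0 with the oligodendrocyte score as covariate, and ranged from 0 to 29 over left-out libraries and replicates. The 13 time-point calls became 31 with at least 1 count and 26 by DESeq2, and ranged from 0 to 24. For ZT20 against ZT8 the count of 0 became 20 with at least 1 count, 11 by DESeq2 and 5 with the length and GC correction, and ranged from 0 to 23. The 1 call in other pairs became 2 with upper-quartile factors, with at least 10 counts and with the oligodendrocyte score, 24 with at least 1 count, 17 by DESeq2, 4 with the length and GC correction and 3 with the replicate block, and ranged from 0 to 22. JTK_Cycle called 0 genes, 4 with the replicate block and 0 to 4 over left-out libraries and replicates, and 21 within the gene, ranging from 1 to 29. With library totals, 12 of the 74 genes were enriched over the input and 8 depleted, against 1525 and 5354 of 17901 genes. Counts over all genes moved too. With at least 1 count, by DESeq2 and with the length and GC correction, the 972 cosinor calls became 2349, 2247 and 1543. In the same settings the 0 calls for ZT20 against ZT8 became 1641, 1114 and 645. The 1050 time-point calls became 2767, 2502 and 1654 there, and the 15 genes called in other pairs became 2424, 1599 and 183. With at least 1 count, 25601 genes were tested. With upper-quartile factors, at least 10 counts and the oligodendrocyte score, 28, 125 and 27 genes were called in other pairs. With the replicate block, 103 genes were called in other pairs and 356 by JTK_Cycle. The cause of these differences was not tested. Replicate numbers did not pair the libraries, since the correlation of same-numbered libraries ranged from -0.52 to 0.59 (18 of 45 over 0.1) and 9 libraries correlated best with their own number. None of the called changes recomputed here (cosinor of 10 named genes, ZT8 against ZT0 of 19 and ZT16 against ZT8 of 18) reversed its direction, and input ratios of single genes were not recomputed. Under the replicate block Snrnp200, Hnrnpf and Srsf2 lost the cosinor call and Hnrnph1 that for ZT8 against ZT0. Of 300 recomputed cosinor results of 10 named genes, 152 lost the call, as did 111 of 570 for ZT8 against ZT0 and 75 of 540 for ZT16 against ZT8.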
